A study of Rattus norvegicus with 9 samples.

Results

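Rat pXEN cells were grown without serum in 2 media, one with Lif and one with Chir99021 in its place, and the difference between them is described here across all genes. Such cells are stem cells grown from the primitive extraembryonic endoderm, the layer of the early embryo from which the endoderm of the yolk sac develops. All came from a single line, RX1, of the WKY strain. The 3 LPE libraries came from cultures with Lif, Pdgf and Egf at 10 ng/ml apiece and no Chir99021. The 3 CPE libraries came from cultures with 1 µM Chir99021, with Pdgf and Egf at 10 ng/ml apiece and no Lif. Both media were built on DMEM/F12 and Neurobasal with the N2 and B27 supplements and β-mercaptoethanol, and both were used on plates coated with collagen I at 10 µg/ml. These 6 libraries were taken from the 9 of the series by their labelled medium, and the other 3, called T, were grown with Lif, Pdgf, Egf, 2% serum and dexamethasone on fibronectin and appear only as a reference level. Of 17315 genes in the tables, 8797 had enough counts to be tested. The labels do not state that the 3 libraries of a medium were separate cultures, so p-values reflect only how these libraries vary, and that variation may be technical. Since Lif was left out and Chir99021 was added together, the effects of these 2 changes cannot be told apart.

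Lif is a cytokine that binds the receptor pair encoded by Lifr and Il6st, and the bound receptor activates Jak kinases and the transcription factor Stat3. Stat3 in turn induces Socs3, an inhibitor of the same pathway. Chir99021 inhibits the kinase Gsk3, which normally marks beta-catenin for destruction, so that beta-catenin can act with Tcf/Lef factors on Wnt target genes such as Axin2. Primitive endoderm gives rise to visceral endoderm, an epithelium that takes up nutrients, and to parietal endoderm, migrating cells that secrete a thick basement membrane.

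Gene counts ran from 3119049 to 3233526 in the LPE libraries and from 3127352 to 4418465 in the CPE libraries, so that 1 count was worth 0.227 to 0.322 CPM (counts per 1000000 of each library's normalised total). These were 11.1% to 14.8% of all reads, and 51.7% to 59.9% of reads were set aside because they mapped to several places. Genes with at least 1 count numbered 8607 to 9314 in LPE and 9162 to 9878 in CPE. Genes with exactly 1 count numbered 26 to 58 in LPE and 33 to 92 in CPE. In the T libraries, with 1698764 to 2161228 gene counts, they numbered 511 to 791. LPE replicate 2 stood apart, with Pearson correlations of log2 CPM of 0.897 and 0.899 to the other LPE libraries, which correlated at 0.934 with each other (across genes, which are not independent). Replicates of a medium differed by 7.38 to 15.6 times the variance that sampling of reads alone gives. Lower bounds given below for genes at 0 therefore cover counting error only, and the true folds may be smaller. Of genes that define the labelled cell type, Gata4, Gata6, Sox17 and Pdgfra had counts in all 6 libraries. Afp and Ttr, markers of mature visceral endoderm, and Nanog and Sox2, markers of epiblast, had 0 counts in all 6 libraries. Among fibroblast genes, Col1a1, Col1a2, Col3a1, Dcn and Lum were also at 0 in all 6. Other markers of visceral endoderm, such as Cubn, Amn and Hnf4a, and of epiblast, such as Pou5f1, had counts in all 6, as given below.

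At an edgeR adjusted p under 0.05, 1084 of 8797 tested genes (12.3%) passed and are named called genes here, of which 589 were higher in CPE (6.7% of those tested) and 495 lower (5.63%). Of these, 355 rose and 250 fell by at least 2-fold (folds here and below are edgeR's fitted values unless called lower bounds). The unadjusted p was under 0.05 for 2152 genes. For 2797 genes (31.8%) the 3 CPE libraries lay all above or all below the 3 LPE libraries. Among called genes, 51 had 0 counts in every LPE library and 12 had 0 counts in every CPE library. The median log2 difference of all genes tested was 0.0081. Without CPE replicate 2 the count of called genes was 702, without CPE replicate 3 it was 694, and without LPE replicate 2, the library that stood apart, it was 1043. That fit kept the most calls of the fits that left out 1 library. In it the 3 lists that lead the account below kept their counts, with 14 basement membrane genes lower, 12 pluripotency genes lower and 7 imprinted genes higher. In other such fits single members lost their calls, among them Klf5 of the pluripotency list and Ppp1r9a of the imprinted list, as given below.

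**Figure D1:**
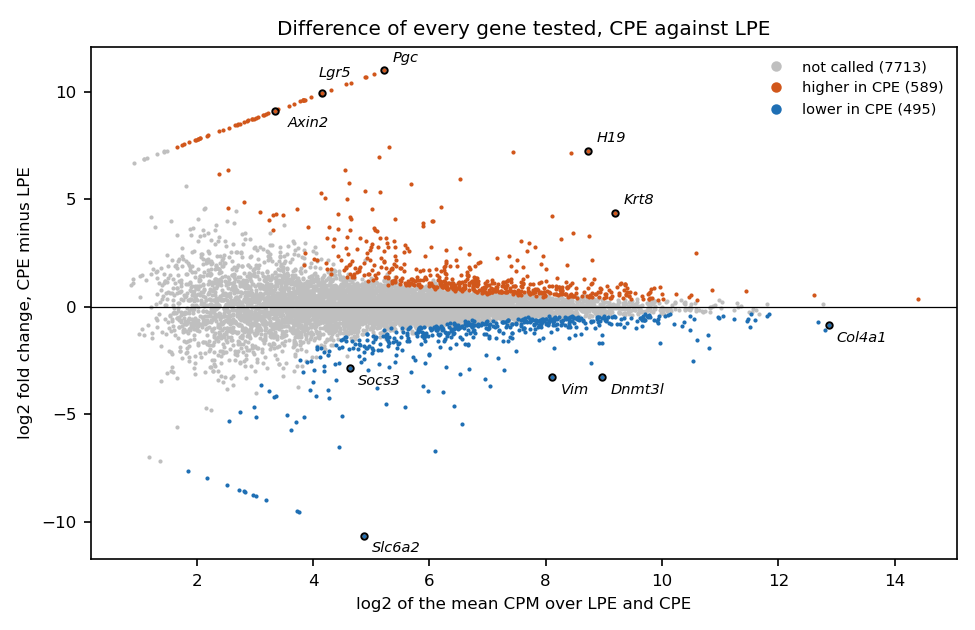
Each point is 1 of the 8797 genes tested, with the log2 of its mean CPM over LPE and CPE on the x axis and its fitted log2 fold change (CPE minus LPE) on the y axis; orange marks the 589 genes that rose in CPE and blue the 495 that fell, and circles mark named genes. The straight edges at upper and lower left are genes with 0 counts in 1 medium, whose fitted fold depends on the prior count.

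The called genes were unevenly spread over the chromosomes. Gene symbols were placed on chromosomes by RefSeq's gene table for GRCr8, while the counts were made on rn6, so chromosomes but no positions of these genes are given, and the question was chosen after the data were seen. On 5 chromosomes (7, 12, 15, 18 and X) the median log2 difference of the genes tested was above 0.3, and on 3 (3, 9 and 19) it was below -0.3. The X chromosome had the largest shift, with a median of 0.68 over 264 genes, of which 79.2% had a difference above 0, 70 were called higher and 7 were called lower. Its median was 0.70 over the 194 genes with at least 20 CPM in either medium. The medians were 0.32 for chromosome 7, 0.41 for chromosome 12, 0.45 for chromosome 15 and 0.47 for chromosome 18, against -0.33 for chromosome 3, -0.39 for chromosome 9 and -0.42 for chromosome 19. On the other 13 chromosomes the medians lay between -0.19 and 0.20. The 5 raised chromosomes held 18.3% of the genes tested and 48.9% of those called higher (288 of 589). The 3 lowered chromosomes held 14.4% of the genes tested and 36% of those called lower (178 of 495).

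The shifts were seen in each library. As the median log2 deviation from the mean of the 6 libraries, X-linked genes stood at -0.24, -0.34 and -0.23 in LPE replicates 1 to 3 and at 0.31, 0.36 and 0.39 in CPE replicates 1 to 3. Chromosome 18 stood at -0.23, -0.31 and -0.14 in LPE and at 0.22, 0.31 and 0.22 in CPE. Chromosome 9 stood at 0.22, 0.15 and 0.23 in LPE and at -0.19, -0.16 and -0.15 in CPE. For 15 of 21 chromosomes (71.4%) the libraries of the 2 media did not overlap, and with 3 against 3 libraries the smallest p of the exact two-sided permutation test is 0.1, which each of these reached. On the same scale the T libraries averaged 0.19 on the X, between the 2 serum-free media, while on chromosomes 15 and 18 they averaged -0.25 and -0.30, beside -0.19 and -0.23 in LPE. What accounts for the shifts was not tested.

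**Figure D2:**
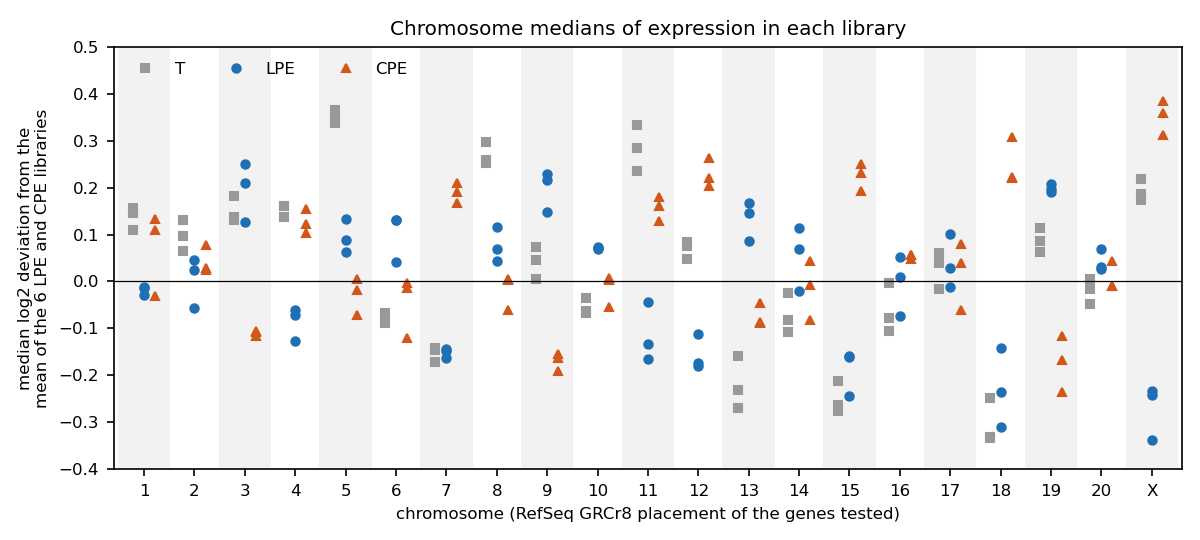
For each chromosome, the y axis gives the median, over its tested genes, of the log2(CPM + 2) deviation from the gene's mean over the 6 serum-free libraries; grey squares are T, blue circles LPE and orange triangles CPE libraries, 3 of each. CPE libraries lie above all LPE libraries on chromosomes 7, 12, 15, 18 and X and below them on 3, 9 and 19.

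With each library's chromosome medians taken out as an offset, an alternative added after the data were seen, the fit gave 740 called genes, 363 that rose and 377 that fell. Of the 1084 genes called before, 631 were called again in the same direction. Removing the median also removes any shared regulation of a chromosome's genes, and the part of the shifts in single results was not tested. Where this step ended the call of a gene described below, its value after the step is given beside it.

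Lifr, Il6st and Stat3 were lower in CPE, the medium without Lif, but most tested genes of the Lif pathway were not called. Of 19 tested genes of Il6-family receptors and Jak/Stat signalling, 3 fell, 1 rose and 15 were not called (median -0.07). The share called was 21.1%, against 12.3% of all genes. Lifr, the Lif receptor, had 757, 742 and 781 CPM in the LPE libraries and 513, 488 and 318 CPM in the CPE libraries, so every CPE library was below every LPE library. It fell by 0.79 on the log2 scale (SE 0.15, edgeR adjusted p = 0.00347). Il6st, the shared signalling subunit, went from 399, 368 and 415 CPM to 247, 242 and 205 CPM (adjusted p = 0.00184). Stat3 went from 450.4, 370.4 and 417 CPM to 239.9, 244 and 207 CPM, again without overlap, and fell by 0.84 (SE 0.14, adjusted p = 0.000972). Its level with serum and Lif in T was 507 ± 32.1 CPM (mean ± SD, n = 3, as for all T values below). Ptpn11, which encodes the phosphatase Shp2 on the branch from this receptor to Erk, was the member that rose, from 133, 128 and 159 CPM to 215, 211 and 260.1 CPM. It lies on chromosome 12, and with the chromosome medians removed it was not called (log2 difference 0.32, adjusted p = 0.308), nor was it without CPE replicate 3 (adjusted p = 0.0702). Jak1 was not called, with 39.5, 41.8 and 44.1 CPM in LPE and 39.3, 66.1 and 45.1 CPM in CPE.

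Among 17 tested Lif/Stat3 target genes 3 fell, 0 rose and 14 were not called (17.6% called, against 12.3% of all genes). Their median log2 difference was -0.80 against 0.0081 for all genes. Socs3 had 73.8, 42.7 and 14.5 CPM in the LPE libraries and 6.98, 6.59 and 4.51 CPM in the CPE libraries. The LPE libraries were spread over 5-fold, yet the lowest of them was above the highest CPE library (log2 difference -2.84, SE 0.57, adjusted p = 0.00423). Its call was lost without LPE replicate 1 (adjusted p = 0.0623), and limma-voom, an alternative test, did not call it either. Tfcp2l1, a transcription factor that acts below Lif in naive pluripotent cells, was even within both media, at 70.3, 73.2 and 68.9 CPM in LPE and 13.1, 18.2 and 13.2 CPM in CPE (4.75-fold lower, adjusted p = 0.000299). In T it stood at 8.81 ± 1.77 CPM, a level nearer to CPE. Klf5, another factor of naive cells, fell 1.49-fold, from 793, 717 and 744 CPM to 467, 632 and 415 CPM (adjusted p = 0.0167), and its call was lost without LPE replicate 1 or 3 or CPE replicate 1 or 3 (adjusted p = 0.0614 to 0.0781). Of the 17 targets, the number that fell was 1 without LPE replicate 1.

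Some Wnt target genes were read only in CPE, but the list as a whole did not move one way. Of 14 tested Wnt/beta-catenin targets 3 rose (Axin2, Lgr5 and Bmp4), 3 fell (Myc, Ephb3 and Bambi) and 8 were not called, with a median of -0.33. Axin2, a negative regulator of the pathway that beta-catenin induces, had 0 counts in all LPE and T libraries and 6.98, 15.2 and 38.99 CPM in the CPE libraries. It was at least 21.5-fold higher in CPE, set against 3 counts per library in LPE, and was called (adjusted p = 0.00193), although the CPE libraries differed more than 5-fold among themselves. Its call was lost without CPE replicate 3 (adjusted p = 0.0543). Lgr5, a receptor for R-spondins that marks several stem cells, was likewise at 0 in all LPE and T libraries and at 36.4, 12.04 and 58.97 CPM in CPE (at least 37.7-fold, adjusted p = 0.000196), though limma-voom gave an adjusted p of 0.0582. Bmp4, a ligand gene that Wnt signalling induces in several embryonic tissues, had 0, 0 and 2.57 CPM in LPE and 35.8, 44.1 and 64.8 CPM in CPE (adjusted p = 0.000425). Nkd1 and Lef1, also common Wnt targets, had 0 counts in all 9 libraries. Ephb3, an ephrin receptor, fell 1.55-fold, and this call was lost without LPE replicate 1 or CPE replicate 2 or 3 (adjusted p = 0.106 to 0.128). Without CPE replicate 3, 2 targets rose, and without LPE replicate 1, CPE replicate 2 or CPE replicate 3, 2 fell.

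The region before the Axin2 start is shown because Axin2 is the pathway's best-known direct target and its reads were found in CPE alone among the 3 media. The 250 bases before the RefSeq start (GRCr8, chr10:94398535-94398784, plus strand) read as below, with matches to the Tcf/Lef motif in capitals.
Axin2: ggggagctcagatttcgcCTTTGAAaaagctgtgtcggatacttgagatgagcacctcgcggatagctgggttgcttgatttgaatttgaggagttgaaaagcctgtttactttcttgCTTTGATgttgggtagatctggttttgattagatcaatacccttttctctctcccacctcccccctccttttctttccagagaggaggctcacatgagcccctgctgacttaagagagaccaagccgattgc
On both strands the letters searched were CTTTGAA, or with another ending CTTTGAT, or by the same rule CTTTGTA, or finally CTTTGTT, and the 2 matches begin 232 and 132 bases before the start. Of 33469 RefSeq promoters of this length 14.9% held at least 1 such match and 1.73% held at least 2. The window before Bmp4 held none, and for Lgr5 no RefSeq promoter was found. No factor's binding was measured. The Axin2 promoter was chosen after the values of the gene were seen.

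Genes that make, secrete and receive Wnt ligands rose more often than they fell. Of 15 tested ligands, receptors and modulators 4 rose, 1 fell and 10 were not called, with a median of 0.69. Wls, which carries Wnt proteins to the cell surface, had 17.001, 4.92 and 12.6 CPM in LPE and 80.8, 67.4 and 106 CPM in CPE (7.36-fold, adjusted p = 0.000309). Porcn, the enzyme that adds the lipid Wnt proteins need for secretion, went from 15.7, 5.84 and 9.01 CPM to 42.7, 52.2 and 22.6 CPM. Porcn lies on the X, and with the chromosome medians removed it was not called (log2 difference 1.34, adjusted p = 0.122), nor was it without LPE replicate 3 or CPE replicate 1 or 2 (adjusted p = 0.0699 to 0.144). Nor did limma-voom call it. The R-spondin receptor gene Lgr4 went from 133, 135 and 148 CPM to 287, 295 and 281 CPM, 2.07-fold higher with no overlap (adjusted p = 0.000246). The Wnt receptor gene Fzd6 also rose, from 173, 147 and 192 CPM to 250.1, 269.6 and 308 CPM, a gene named after its values were seen, and was not called without CPE replicate 3 (adjusted p = 0.0581) or with the chromosome medians removed (log2 difference 0.35, adjusted p = 0.223).

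Sfrp1, a secreted protein that binds Wnt ligands, went from 81.5, 129 and 132 CPM to 44.5, 32.02 and 45.4 CPM (2.81-fold lower, adjusted p = 0.00198). Tle4, a co-repressor of Tcf factors, went from 426, 417 and 455 CPM to 249.8, 219.8 and 262 CPM (adjusted p = 0.000713), and Bambi, a pseudoreceptor that dampens Bmp signals, from 34.3, 34.1 and 28.6 CPM to 6.69, 1.59 and 4.19 CPM. Myc, often counted among Wnt and Stat3 targets, fell 4.37-fold, from 41.7, 59.6 and 56.6 CPM to 11.1, 14.3 and 10.6 CPM (adjusted p = 0.00161). Of the 25 tested core genes from Gsk3 to beta-catenin, Tle4 fell, Apc rose and 23 were not called (8% called, against 12.3% of all genes). Ctnnb1, beta-catenin itself, stood at 854, 1029 and 832 CPM in LPE and 739.5, 816 and 915 CPM in CPE (log2 difference -0.14, 95% interval -0.39 to 0.12). Gsk3b, a target of Chir99021, stood at 72.8, 57.5 and 78.2 CPM and 95.4, 108 and 118 CPM and was not called (adjusted p = 0.089). Apc, part of the complex that destroys beta-catenin, was 1.597-fold higher, but it lies on chromosome 18 and was not called with the chromosome medians removed (log2 difference 0.19, adjusted p = 0.385).

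**Figure D3:**
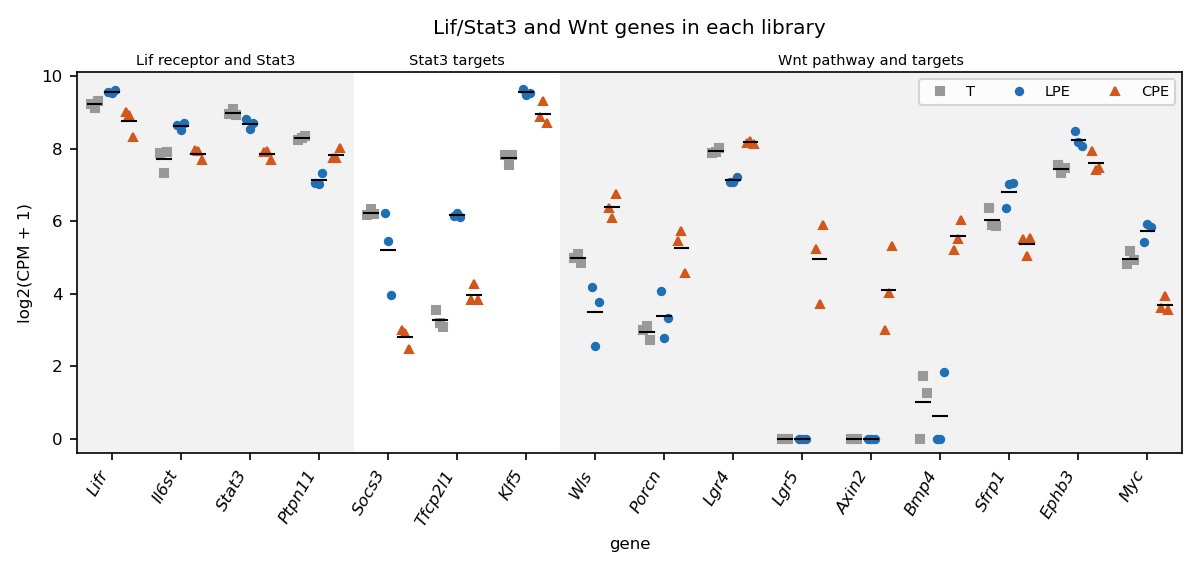
Each marker is 1 library and each short black line the mean of 3, as log2(CPM + 1), for 16 genes in T (grey squares), LPE (blue circles) and CPE (orange triangles). Lgr5 and Axin2 are at 0 in all T and LPE libraries and above 0 in all CPE libraries, and Lifr, Il6st, Stat3, Socs3, Tfcp2l1, Sfrp1 and Myc are lower in every CPE library than in every LPE library.

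Keratins rose and vimentin fell. Krt8, a keratin of simple epithelia, had 41.4, 40.9 and 79.5 CPM in the LPE libraries and 1116, 919.5 and 1317 CPM in the CPE libraries, a gap of more than 10-fold between the closest libraries. The fitted rise was 4.37 on the log2 scale (SE 0.24, adjusted p = 4.39e-08). Its filament partner Krt18 went from 58.7, 74.4 and 53.1 CPM to 604, 373 and 688 CPM (8.92-fold, adjusted p = 3.88e-07), and Krt19 from 104, 94.1 and 96.2 CPM to 208, 173 and 177 CPM (1.896-fold). Krt8 and Krt18 lie on chromosome 7, and with the chromosome medians removed their differences were 4.04 and 2.82, both still called. The other 3 tested keratin and plakin genes were not called. Vim, the intermediate filament of mesenchymal cells, had 516, 535 and 449 CPM in LPE and 64.3, 50.6 and 42.2 CPM in CPE, 9.54-fold lower (adjusted p = 4.39e-08). Of the 9 tested mesenchymal genes and factors, Vim fell, Fn1 rose and 7 were not called (median 0.27), and with the chromosome medians removed 1 fell and 2 rose. Krt8 and Krt18 have close copies in the genome, and reads from more than 1 place were left uncounted, so their levels are uncertain.

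Epithelial junction genes rose more often than they fell. Of 42 tested junction and polarity genes 10 rose, 2 fell and 30 were not called (28.6% called, median 0.14). Cldn4, a claudin of tight junctions, had 5.77, 0 and 0 CPM in LPE and 121, 73.4 and 111 CPM in CPE (adjusted p = 0.000181). The claudin gene Cldn23 rose as well, but was not called without LPE replicate 3 or CPE replicate 1 (adjusted p = 0.0575 to 0.182). DESeq2 and limma-voom did not call it either. Epcam went from 169.7, 155 and 167 CPM to 451, 399 and 408 CPM, and Grhl2, a transcription factor of epithelial genes, from 8.34, 0 and 7.403 CPM to 58.5, 76.8 and 49.3 CPM; both were named after their values were seen. Cdh1, the E-cadherin gene, overlapped between the media, with 349.7, 333 and 253 CPM in LPE and 485, 326 and 225 CPM in CPE (log2 difference 0.15, 95% interval -0.33 to 0.62). The members that fell were Ctnnd1, the p120 catenin (1.34-fold), and Pard6b, a polarity protein (1.49-fold). Both lie on chromosome 3 and were not called with the chromosome medians removed (log2 differences -0.12 and -0.26, adjusted p = 0.69 and 0.318). Ctnnd1 was not called without LPE replicate 1 or 2 or CPE replicate 1, 2 or 3 (adjusted p = 0.0658 to 0.172), and Pard6b without LPE replicate 1 or 3 or CPE replicate 2 or 3 (adjusted p = 0.0593 to 0.0886). After the chromosome step 9 junction genes were higher and 2 lower, the latter being Ezr and Lsr, which were not called before and are named after their values were seen.

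Basement membrane genes fell together. Of 23 tested members 14 fell, 1 rose and 8 were not called (65.2% called against 12.3% of all genes), with a median log2 difference of -0.62. Lists and members were chosen with earlier results of these data known, so this share and those of the other lists are descriptive only. The summed level of the list was 32868 to 36552 CPM in the LPE libraries and 18627 to 21754 CPM in the CPE libraries. Lama1, the laminin chain of early embryonic membranes, had 8757, 11035 and 9360.00 CPM in LPE and 4312, 5289 and 4208 CPM in CPE (2.11-fold lower, adjusted p = 3.84e-06). Col4a1, a chain of collagen IV, had 8967, 10268 and 9475 CPM in LPE and 5378, 5496 and 5099.9 CPM in CPE (1.797-fold lower, adjusted p = 1.07e-06). Nid2, which links laminin to collagen IV, fell further, from 251, 326 and 251 CPM to 44.5, 35.2 and 27.1 CPM (7.74-fold). The CPE libraries were below the LPE libraries throughout for these 3 genes. Collagen-modifying enzymes of the secretory pathway fell too, namely P3h1, P4ha1, P4ha2, Plod1, Plod2 and Colgalt1 (named to complete the count, after their values were seen) and the collagen chaperone Serpinh1, which went from 3835, 3592 and 3801 CPM to 2449.7, 2724 and 2155 CPM. The member that rose was Col18a1, from 0, 3.07 and 0 CPM to 39.8, 23.2 and 44.1 CPM (adjusted p = 0.00297). With the chromosome medians removed the counts were again 14 and 1. Fn1, the fibronectin gene, was at 0 in all LPE libraries and at 15.99, 12.04 and 26.7 CPM in CPE (at least 19.2-fold higher, adjusted p = 0.00179).

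Among called genes that attach cells to the matrix and to actin, more fell than rose, but the medians of both lists were near 0. Of 15 tested integrin genes and their activators 3 fell (Itga4, Itga6 and Fermt2) and 0 rose (20% called against 12.3% of all genes, median -0.03). Fermt2 was not called without LPE replicate 1 or 3 or CPE replicate 1, 2 or 3 (adjusted p = 0.0582 to 0.124). Itga6, a laminin receptor, went from 307, 294 and 323 CPM to 163, 180.1 and 139 CPM (1.92-fold lower, adjusted p = 0.000821). Of 46 actin and focal adhesion genes 9 fell and 6 rose (32.6% called, median -0.03), against 5 and 3 without CPE replicate 3. With the chromosome medians removed 7 fell and 5 rose. Flna, which crosslinks actin and lies on the raised X chromosome, fell 2.44-fold, from 2444, 2645 and 2449 CPM to 1031, 987 and 1065 CPM (adjusted p = 2.73e-07), and Flnc from 142, 145 and 135 CPM to 9.596, 2.73 and 15.5 CPM. Actb rose 1.46-fold but lies on chromosome 12 and was not called with the chromosome medians removed (log2 difference 0.16, adjusted p = 0.293). Among 27 Yap and serum response factor genes 5 fell and 0 rose (18.5% called, median -0.34). Those that fell included the Yap pathway genes Wwtr1 (239, 253 and 258 CPM in LPE and 101, 99.9 and 76.4 CPM in CPE) and Tead2. F3, which encodes tissue factor, fell 2.96-fold.

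The endoderm regulators split. Of 25 tested members 4 rose, 7 fell and 14 were not called (44% called, median -0.17). Gata4 had 864, 778 and 863 CPM in LPE and 949, 911 and 907 CPM in CPE and was not called (log2 difference 0.14, 95% interval -0.07 to 0.36). Gata6, with 444, 489 and 629 CPM and 457, 450.1 and 340.3 CPM, was not called either, but it lies on chromosome 18 and was called lower with the chromosome medians removed (log2 difference -0.80, adjusted p = 0.00221). Foxa2, Sox7 and the receptor gene Pdgfra were not called. Sox17 went from 1039, 880.3 and 1029.95 CPM to 611, 772 and 587 CPM (1.496-fold lower, adjusted p = 0.00624). Dab2, an endocytic adaptor of endoderm, went from 451, 617 and 486 CPM to 209.7, 175 and 243 CPM (2.48-fold lower, adjusted p = 7.69e-05). Hnf4a, a regulator of visceral endoderm, rose from 21.8, 14.1 and 11.6 CPM to 52.6, 56.3 and 60.6 CPM (3.56-fold, adjusted p = 0.00379), above the 19.1 ± 1.09 CPM of T.

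Parietal endoderm markers fell more often than they rose, and visceral markers went both ways. Of 18 tested parietal endoderm markers 8 fell, 2 rose and 8 were not called (median -0.35; 0 rose in 4 of the 6 fits that left out 1 library), a list that shares laminin, collagen and Sparc genes with the basement membrane list. Srgn, a proteoglycan gene, went from 998, 944 and 1067 CPM to 587, 603 and 327 CPM and Sparc from 4319.97, 3830.5 and 4156 CPM to 3229, 3132 and 2673 CPM. The small heat shock protein gene Cryab had 12.2, 21.5 and 21.2 CPM in LPE and 0 counts in all CPE libraries, so it was at least 21.8-fold lower (adjusted p = 0.00149). Thbd, a classical parietal marker, overlapped (669.8, 498 and 670.1 CPM in LPE and 500.2, 513 and 426 CPM in CPE). Of 11 tested visceral endoderm markers 3 fell, 1 rose and 7 were not called (median 0.03), and with the chromosome medians removed 2 fell and 2 rose. The third that fell was Ctsz, a lysosomal protease gene on chromosome 3, which was not called after that step (log2 difference -0.33, adjusted p = 0.0651). Cubn and Amn, the 2 subunits of the nutrient receptor cubam, both fell. Cubn went from 1469.8, 1781 and 1324 CPM to 407, 449 and 554 CPM (3.25-fold, adjusted p = 1.49e-06), and Amn from 48.1, 51.9 and 81.8 CPM to 11.3, 7.27 and 10.6 CPM (6.23-fold, adjusted p = 0.000415).

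Pluripotency genes that these cells express fell together. Of 18 tested members 12 fell, 0 rose and 6 were not called (66.7% called), with a median of -1.08, and their summed level was 3982 to 4265 CPM in LPE and 1758 to 2037 CPM in CPE. The list overlaps with the Lif targets in Klf5 and Tfcp2l1. Pou5f1, which encodes Oct4, had 235, 324 and 231 CPM in LPE and 131, 163 and 99.3 CPM in CPE (2.004-fold lower, adjusted p = 0.00435). Tcl1a, a co-activator of Akt found in early embryos, had 17.3, 28.9 and 30.3 CPM in LPE and 0, 0 and 1.93 CPM in CPE (adjusted p = 0.00526). Lin28a, an RNA-binding protein that blocks let-7 maturation, went from 565, 509.9 and 478 CPM to 234, 297 and 381 CPM, and Tbx3 from 53.9, 91.6 and 58.6 CPM to 25.6, 26.3 and 10.6 CPM; both were named after their values were seen. The counts were again 12 and 0 with the chromosome medians removed.

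The genes of new DNA methylation were part of this list. Dnmt3l, a cofactor of the methyltransferases without catalytic activity of its own, had 862, 977 and 885 CPM in the LPE libraries and 74.2, 97.9 and 111 CPM in the CPE libraries. It fell by 3.26 on the log2 scale (SE 0.16, adjusted p = 1.66e-08), to a level near the 135 ± 30.6 CPM of T. The methyltransferase genes fell as well, Dnmt3a from 54.9, 94.7 and 57.6 CPM to 5.53, 9.99 and 14.8 CPM (adjusted p = 0.000494) and Dnmt3b from 198, 220.1 and 203 CPM to 40.4, 43.8 and 48.02 CPM (adjusted p = 2.67e-06). No library of CPE reached any library of LPE for these 3 genes. Of 25 tested genes of DNA methylation and chromatin 4 fell and 3 rose. Dnmt3a, Dnmt3b and Dnmt3l were called in each fit that left out 1 library. The genes that rose were Smarca2, an ATPase of chromatin remodelling (7.06, 2.15 and 20.3 CPM in LPE and 69.8, 56.3 and 77.7 CPM in CPE), Ehmt2 and Kdm2b, and Kdm2b lost its call whichever of the 6 libraries was left out (adjusted p = 0.058 to 0.178) and with the chromosome medians removed (log2 difference 0.37, adjusted p = 0.363).

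The called imprinted genes moved the other way. Of 17 tested members of the list of imprinted genes and growth regulators 7 rose, 0 fell and 10 were not called (41.2% called, median 0.72). H19, Igf2 and Grb10 had enough counts to be tested only through CPE, so this share is descriptive only. The summed level of the list was 756 to 886 CPM in LPE and 1919 to 3459 CPM in CPE, and H19, Igf2 and Igf2r made up much of the CPE sums. H19, a maternally expressed noncoding RNA, had 7.38, 8.91 and 0 CPM in LPE and 817, 442 and 1263 CPM in CPE (log2 difference 7.25, SE 0.53, adjusted p = 5.78e-07). Its neighbour Igf2, a growth factor expressed from the paternal allele, had 7.06, 0 and 0 CPM in LPE and 329, 178 and 530.1 CPM in CPE (log2 difference 7.19, adjusted p = 6.33e-06). In both genes CPE replicate 2 was the lowest and replicate 3 the highest of the CPE libraries, and all LPE libraries were below 10 CPM. H19 and Igf2 were called in each fit that left out 1 library, but not by limma-voom with sample weights (adjusted p = 0.123 and 0.159). In T, H19 stood at 56.6 ± 4.996 CPM and Igf2 at 2.24 ± 0.5297 CPM. Igf2r, the receptor that clears Igf2, rose from 16.7, 32.3 and 34.1 CPM to 453, 427 and 685 CPM (18.8-fold, adjusted p = 1.54e-07). Grb10, an adaptor that restrains growth, was at 0 in LPE and at 16.3, 13.2 and 17.1 CPM in CPE (at least 16.3-fold), but with reads of either strand counted it was not called (adjusted p = 0.249). Peg3 (25.02, 21.8 and 11.6 CPM in LPE and 129, 95.6 and 81.9 CPM in CPE), Ppp1r9a and Phlda2 (2.84-fold) were the other members that rose, Peg3 and Ppp1r9a being named after their values were seen. Ppp1r9a was not called without LPE replicate 3 or CPE replicate 1, 2 or 3 (adjusted p = 0.0681 to 0.103), nor by DESeq2 or limma-voom. H19, Igf2, Igf2r, Peg3 and Phlda2 lie on chromosome 1, whose median was 0.06. With the chromosome medians removed the counts of the list were again 7 and 0, and its median was 0.39. Allele of origin was not analysed here.

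**Figure D4:**
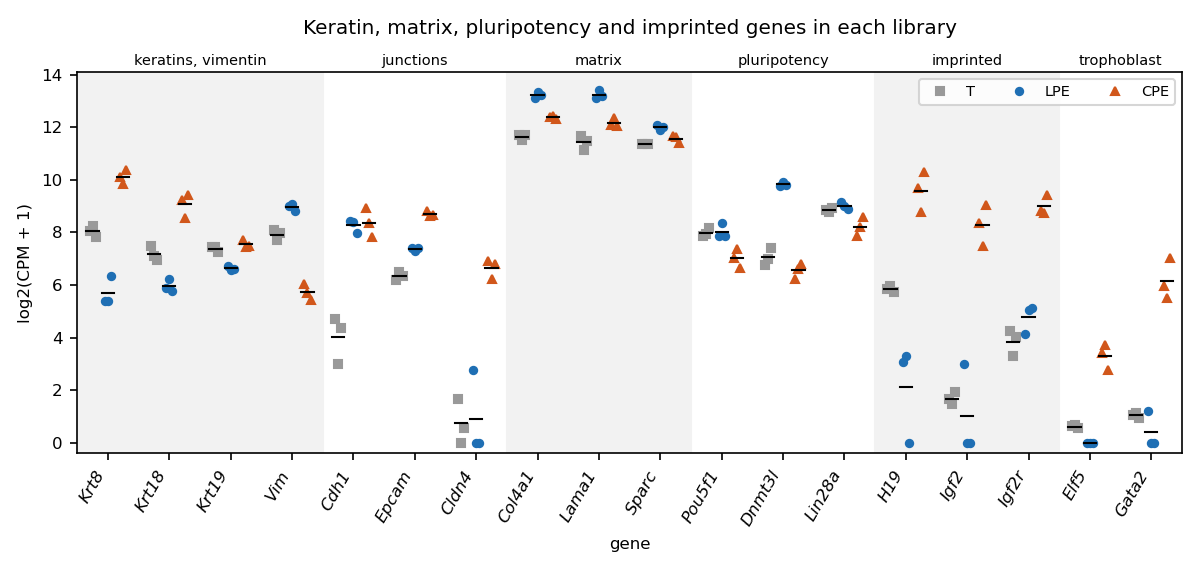
Each marker is 1 library and each short black line the mean of 3, as log2(CPM + 1), for 18 genes in T (grey squares), LPE (blue circles) and CPE (orange triangles). Krt8, Krt18, H19, Igf2 and Igf2r are higher in every CPE library than in every LPE library, Vim, Col4a1, Lama1, Pou5f1 and Dnmt3l are lower, and Cdh1 overlaps.

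Of 31 listed trophoblast markers 7 were tested, and 4 rose and 0 fell. Elf5, Gata2 and Bmp4 had enough counts to be tested only through CPE, so the count among those tested is descriptive only. Elf5, a factor of trophoblast stem cells, had 0 counts in LPE and 9.596, 12.04 and 5.8005 CPM in CPE (at least 9.63-fold, adjusted p = 0.0173). Gata2, also used in blood cells, had 1.28, 0 and 0 CPM in LPE and 61.1, 44.3 and 131 CPM in CPE (adjusted p = 1.74e-05). The other members that rose were Bmp4 and Id2, a target of Bmp signals (9.303, 5.84 and 1.29 CPM in LPE and 63.7, 28.2 and 59.9 CPM in CPE). Elf5 was not called without CPE replicate 1, 2 or 3 (adjusted p = 0.0559 to 0.102) or with the replicate number as a block. For Gata2, limma-voom gave an adjusted p of 0.0622. The summed level of the list was 24.8 to 84.8 CPM in LPE and 191 to 331 CPM in CPE, and Gata3 had 0 counts in all 6 libraries while Tfap2c had at most 3.07 CPM. Cdx2, a trophoblast and gut factor, was counted only in CPE replicates 1 and 3, at 8.14 and 22.6 CPM, too few for the test. Of 9 tested endothelial and blood markers 5 fell and 0 rose (median -1.65), their summed level going from 276 to 325 CPM in LPE to 117 to 138 CPM in CPE, while Kdr, Ptprc, Tal1 and Hba1 were at 0 in all 6. Those that fell were Pecam1, Cdh5, Tek, Runx1 and Lyve1, of which Pecam1 and Tek were named after their values were seen. Cdh5 was not called without LPE replicate 1 or 2 or CPE replicate 2 or 3 (adjusted p = 0.0617 to 0.124), with the replicate number as a block or with the chromosome medians removed (log2 difference -1.71, adjusted p = 0.0949). Nor were Runx1 without LPE replicate 3 (adjusted p = 0.0871) or Lyve1 without LPE replicate 1 or 3 (adjusted p = 0.0502 to 0.0572). Neural markers summed to 344 to 411 CPM in LPE and 735 to 914 CPM in CPE. Bex1 alone gave 611 to 816 CPM of the CPE sums, and without it the sum of the list was lower in CPE than in LPE. Of 7 neural markers Dcx and Bex1 rose and Tubb3 and Stmn2 fell, and Dcx, an X-linked gene, was not called without LPE replicate 3 or CPE replicate 1 or 3 (adjusted p = 0.07 to 0.135) or with the chromosome medians removed (log2 difference 2.57, adjusted p = 0.0763). DESeq2 and limma-voom did not call Dcx either. Stmn2, a tubulin-binding protein, went from 270.1, 221 and 243 CPM to 18.3, 25.7 and 12.6 CPM, and Bex1, an X-linked gene, from 10.6, 3.996 and 0 CPM to 611, 635 and 816 CPM. In bulk libraries fewer cells of a type and less RNA per cell cannot be told apart, and the part of other cell types in the results was not tested.

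Of 32 tested receptor tyrosine kinases and ligands 7 rose and 5 fell (37.5% called, against 12.3% of all genes). Egfr, the receptor for the added Egf, had 0 counts in all 6 libraries, and Pdgfra, a receptor for the added Pdgf, stood at 288, 263 and 318 CPM in LPE and 223, 272 and 278 CPM in CPE without a call. Fgf10, a ligand of epithelial growth, had 126, 163 and 116 CPM in LPE and 0, 1.82 and 1.93 CPM in CPE (adjusted p = 5.98e-07), and the receptor gene Fgfr3 went from 106, 95.9 and 115 CPM to 28.8, 21.6 and 16.1 CPM. Nrp1, a co-receptor of Vegf and semaphorins, had 0 counts in LPE and T and 50.02, 37.02 and 93.5 CPM in CPE (at least 63.3-fold, adjusted p = 8.63e-06). Of 26 output genes of the Mapk/Erk pathway 5 fell (Dusp4, Etv5, Myc and, named after their values were seen, Spry2 and Spry4) and 2 rose. Dusp4, a phosphatase of Erk, was not called without LPE replicate 1 or 3 or CPE replicate 2 or 3 (adjusted p = 0.0675 to 0.0894). The number that fell was 3 without LPE replicate 1, LPE replicate 3, CPE replicate 2 or CPE replicate 3. Etv5, a factor that Fgf signals induce, went from 52.3, 76.2 and 37.7 CPM to 15.7, 13.6 and 11.9 CPM (4.02-fold lower, adjusted p = 0.00297). Of 30 Bmp and Tgf-beta genes 3 rose and 2 fell (16.7% called). Bmper, a secreted regulator of Bmp that belongs to no list, was among the falls of lowest p, from 174, 187 and 197 CPM to 4.36, 6.13 and 1.61 CPM. Of 16 interferon-stimulated and inflammatory genes 3 fell and 0 rose (18.8% called). Those that fell were Ifitm1 (184, 166 and 149 CPM in LPE and 27.6, 13.9 and 15.1 CPM in CPE), Isg15 and Irf1. Isg15 was not called without LPE replicate 1, 2 or 3 or CPE replicate 1 or 2 (adjusted p = 0.053 to 0.206) or with the chromosome medians removed (log2 difference -4.78, adjusted p = 0.063). Nor was it called by limma-voom or with the replicate number as a block. Irf1 was not called without LPE replicate 1 or 3 or CPE replicate 2 or 3 (adjusted p = 0.0616 to 0.129). The number that fell was 1 without LPE replicate 1, LPE replicate 3 or CPE replicate 2.

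Irf1 is induced through Stat factors in many cells and went from 37.2, 32.6 and 51.8 CPM to 20.6, 8.18 and 7.41 CPM (adjusted p = 0.0269). The region before its start is shown because, of Irf1, Socs3, Stat3, Tfcp2l1 and Klf5, only Irf1 had a match to the Stat motif TTCNNNGAA. The motif reads the same on both strands, and windows of other called genes were not examined singly for it. The 250 bases before the RefSeq start of Irf1 (GRCr8, chr10:38417685-38417934, plus strand) have the match in capitals.
Irf1: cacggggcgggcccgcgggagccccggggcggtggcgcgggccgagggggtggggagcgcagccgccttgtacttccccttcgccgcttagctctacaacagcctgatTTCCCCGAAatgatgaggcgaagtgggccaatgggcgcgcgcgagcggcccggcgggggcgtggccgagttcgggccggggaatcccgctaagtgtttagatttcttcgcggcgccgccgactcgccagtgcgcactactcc
The match begins 142 bases before the start. The windows before Socs3, Stat3, Tfcp2l1 and Klf5 held none, and 7.67% of all 33469 promoters held at least 1. No binding was measured, and this gene too was chosen after its values were seen.

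Glul, which makes glutamine from glutamate, had the lowest p of all falls, with 2585, 2606 and 2333 CPM in the LPE libraries and 449.6, 491 and 395 CPM in the CPE libraries, 5.63-fold lower (adjusted p = 6.52e-09). Of 23 amino acid transporters 7 fell and 3 rose (median -0.45). Slc1a3, a glutamate carrier, went from 97.2, 124 and 92.4 CPM to 29.1, 15.9 and 24.5 CPM and Slc7a5, a carrier of large neutral amino acids, from 105, 132 and 81.4 CPM to 46.5, 30.4 and 30.6 CPM (2.96-fold lower). With the chromosome medians removed 5 fell and 0 rose, and without LPE replicate 3, 4 fell. Of 33 genes of glycolysis, lactate and hypoxia 6 rose and 6 fell, against 3 that rose without LPE replicate 3 or CPE replicate 1, and lactate genes went both ways. Ldhb had 0, 0 and 4.18 CPM in LPE and 66.6, 32.5 and 40.3 CPM in CPE, while the lactate exporter gene Slc16a3 went from 145, 128 and 138 CPM to 13.1, 19.3 and 26.4 CPM (7.001-fold lower, adjusted p = 1.26e-05). Ndrg1, a stress and hypoxia gene, had 1.604, 0 and 0 CPM in LPE and 92.5, 54.7 and 62.8 CPM in CPE (adjusted p = 1.79e-05).

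Lipid synthesis lists stayed near the background. Of 36 cholesterol genes 2 rose and 2 fell (11.1% called), and of 39 genes of fatty acid and triglyceride synthesis 4 rose and 2 fell (15.4%), or 2 and 3 without CPE replicate 2. Fdps, an enzyme of isoprenoid synthesis, fell 1.56-fold. Plin2, a coat protein of lipid droplets, rose from 41.1, 26.7 and 39.9 CPM to 117, 102 and 128 CPM. Lysosome genes rose more often than they fell, with 10 of 55 higher and 4 lower (median 0.26), although without CPE replicate 1 or 2 only 6 were higher. The protease genes diverged, Ctsd rising from 42.98, 54.1 and 47.96 CPM to 266, 227 and 219 CPM (4.905-fold, adjusted p = 1.88e-06) and Ctsl falling from 2311, 2309 and 2306 CPM to 1062, 791 and 551 CPM (2.88-fold, adjusted p = 2.99e-05). Cst3, a secreted inhibitor of such proteases, fell from 721, 767 and 783 CPM to 106, 158 and 112 CPM (6.01-fold). Among 36 antioxidant genes 4 rose and 5 fell, or 5 and 3 with the chromosome medians removed, with Akr1b8 going from 14.8, 28.3 and 29.9 CPM to 163, 122 and 198 CPM and Nqo1 from 429.8, 507 and 553 CPM to 209, 191 and 144 CPM. Of 65 genes of the respiratory chain and ATP synthase 3 were called (4.62%), including Ndufs1, a subunit of complex I, which fell 5.11-fold.

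Secretory chaperone and ribosome biogenesis genes fell more often than they rose. Of 38 unfolded protein and amino acid stress genes 8 fell and 0 rose (21.1% called), or 5 and 0 without LPE replicate 1 or 3, and among them the endoplasmic reticulum chaperone gene Hspa5 went from 3917, 3861 and 3637 CPM to 2004, 2179 and 1881 CPM (1.88-fold lower, adjusted p = 3.38e-06). Of 37 Myc and ribosome biogenesis genes 10 fell and 1 rose (median -0.45), and with the chromosome medians removed, as without CPE replicate 2, 6 fell and 0 rose. Of 65 cell cycle genes 8 fell and 3 rose (16.9% called, against 12.3% of all genes), and after that step 5 fell and 0 rose. The number of cell cycle genes that fell was 3 without CPE replicate 2 and 4 without LPE replicate 1, LPE replicate 3 or CPE replicate 1. Rrm2, a subunit of the enzyme that makes deoxynucleotides, had 3198, 2628 and 2691 CPM in LPE and 791, 745 and 735 CPM in CPE (3.75-fold lower, adjusted p = 3.04e-08). Mybl2, a cell cycle factor, fell 2.76-fold. Of 77 cytosolic ribosomal protein genes 7 rose and 7 fell (18.2% called), and after the chromosome step 1 rose and 4 fell. Of 30 heat shock and chaperone genes 3 rose and 7 fell, and after that step 0 rose and 3 fell. Ribosomal protein genes have many processed copies, so their levels are uncertain. In the fits that left out 1 library the chaperone counts were 0 to 2 higher and 3 to 5 lower, and the ribosomal counts 4 to 7 higher and 3 or 4 lower.

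Smaller lists outside the pathways above held single genes with large differences. Of 29 secreted proteases and inhibitors 8 rose and 3 fell (37.9% called, against 12.3% of all genes). Besides Pgc, these included Mmp15, a membrane-bound metalloprotease (3.53, 0 and 1.61 CPM in LPE and 73.3, 55.6 and 79.6 CPM in CPE), and Mme, the peptidase neprilysin, which went from 255, 213 and 267 CPM to 169.8, 126 and 157 CPM (1.63-fold lower, adjusted p = 0.0136), a call that was lost without LPE replicate 1 or 3 or CPE replicate 2 (adjusted p = 0.0555 to 0.0794). Of 39 ion channels, pumps and solute carriers 7 rose and 3 fell (25.6% called). In each fit without 1 library other than LPE replicate 2 the counts were 5 and 1. Of 12 homeobox genes 4 rose and 1 fell (41.7% called). Of 16 Notch and Hedgehog genes 2 rose and 0 fell (12.5% called, near the share of all genes). One that rose was Notch3, at 1.92, 16.9 and 8.37 CPM in LPE and 59.6, 61.8 and 34.2 CPM in CPE. Notch3 was not called without LPE replicate 3 or CPE replicate 1 or 2 (adjusted p = 0.051 to 0.0585). Of 15 glucocorticoid receptor targets 2 rose and 2 fell (26.7% called). Among them Fkbp5, a chaperone that restrains that receptor, went from 83.4, 79.6 and 71.5 CPM to 34.6, 33.6 and 38.03 CPM (2.21-fold lower, adjusted p = 0.0095). Of 34 genes of endocytosis and uptake 5 rose and 5 fell (29.4% called), and those that fell included Amn, Cubn and Dab2.

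**Figure D5:**
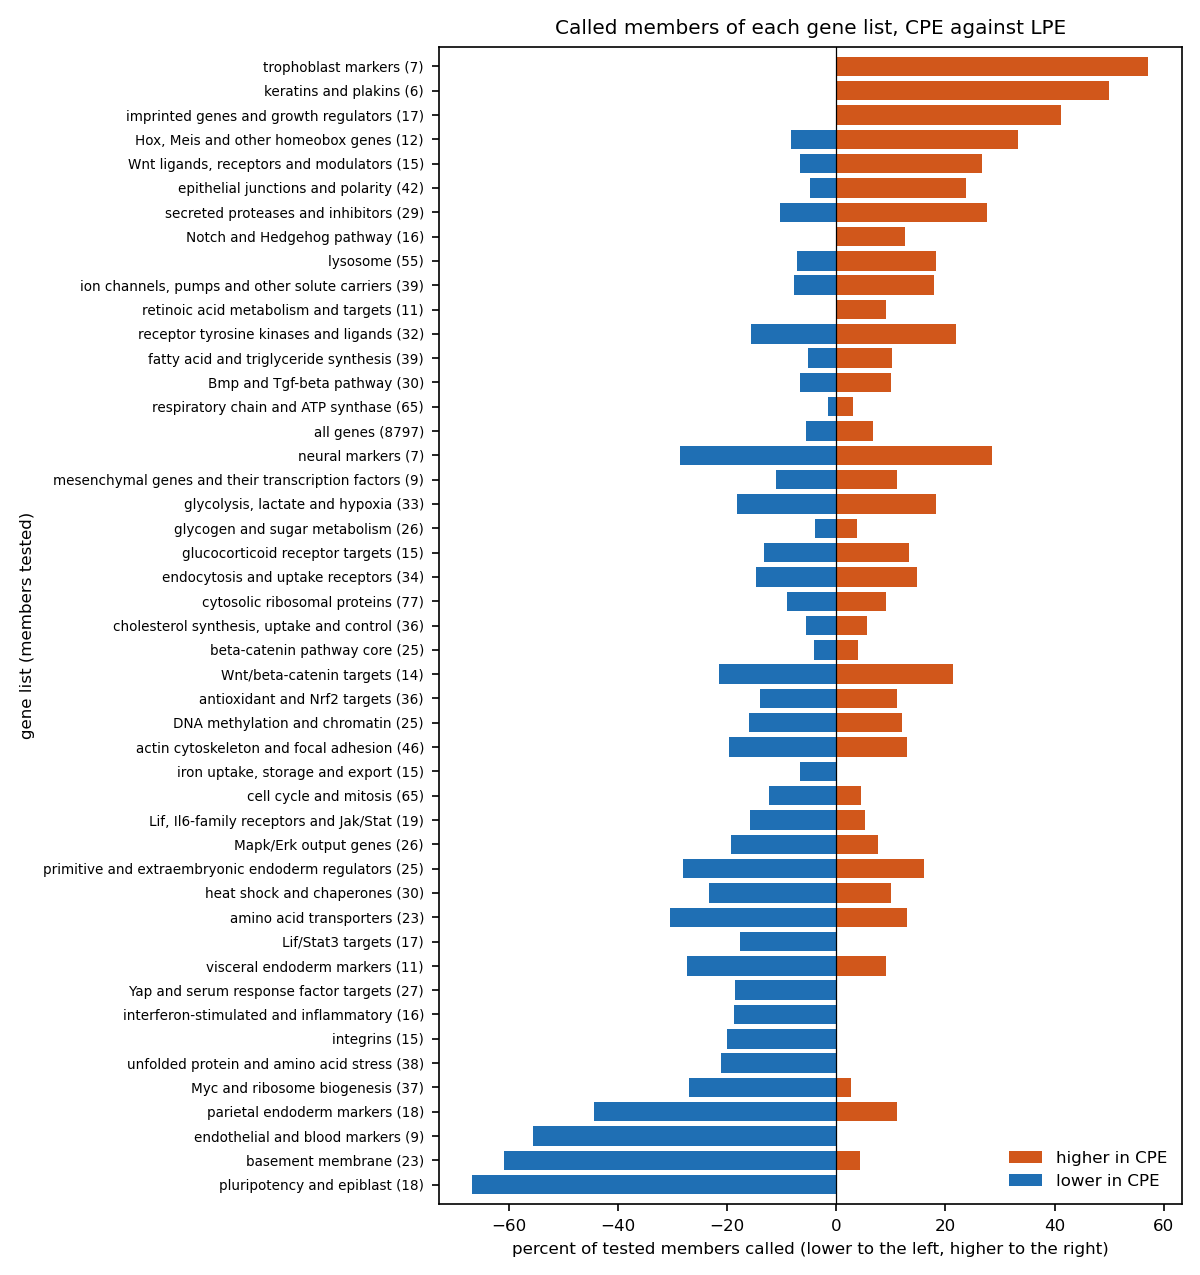
Bars give, for each gene list with at least 5 tested members, the percent of tested members called higher (orange, to the right) and lower (blue, to the left) in CPE, with the number tested in parentheses; 8797 genes form the row of all genes. Trophoblast, keratin and imprinted genes have the highest shares called higher, and pluripotency and basement membrane genes the highest shares called lower.

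Many genes with a high fitted rise had 0 counts in LPE, so that only a lower bound, which covers counting error alone, is given. Pgc, the precursor of a gastric protease, had 0 counts in all LPE and T libraries and 84.04, 65.4 and 75.1 CPM in CPE (at least 78.8-fold, adjusted p = 9.9e-07). Stac2 and Smpx, both best known from muscle, were also at 0 in LPE and T and reached 79.1, 64.04 and 56.4 CPM and 31.7, 39.3 and 71.2 CPM in CPE. Pon2, a lactonase, was at 0 in LPE, at 22.5 ± 1.37 CPM in T and at 59.6, 62.9 and 56.1 CPM in CPE, and Pdpn, a mucin-like membrane protein, at 0, at 11.4 ± 3.04 CPM and at 39.3, 25.9 and 86.4 CPM in the same order. Klk6, Slc47a1, Car2, Adgrl2 and Dtx4 were other genes with 0 counts in LPE, at least 41.8-fold, 37.1-fold, 32.9-fold, 30.7-fold and 30.3-fold higher in CPE. Of the 51 called genes at 0 in LPE, 15 had a mean above 5 CPM in T. Slc6a2, the noradrenaline transporter gene, was the opposite case, with 42.3, 68.5 and 64.4 CPM in LPE and 0 counts in all CPE libraries (at least 69.5-fold, adjusted p = 3.38e-06). Dpysl4, Gtsf1, Kcnd3, Pde9a, Sspo and Lama4 were also at 0 in CPE, with bounds of 31.6-fold, 19.3-fold, 18.5-fold, 16.9-fold, 16.6-fold and 15.8-fold.

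Large rises of low p were also found on the X chromosome. Wbp5 went from 68.3, 42.7 and 69.8 CPM to 535, 598 and 810.5 CPM (10.7-fold) and Rbbp7, a histone-binding protein, from 530.3, 359 and 513 CPM to 2578, 1877 and 3408 CPM (5.61-fold, adjusted p = 8.6e-07). With the chromosome medians removed their differences were 2.81 and 1.87, against 3.43 and 2.49 before, and both were still called. Among autosomal genes Akr1c14, an aldo-keto reductase of steroids, rose from 105, 59.6 and 70.2 CPM to 751, 599 and 984 CPM (9.94-fold, adjusted p = 2.73e-07), and Aqp8, a water channel, from 61.9, 57.5 and 53.1 CPM to 300.4, 473 and 409 CPM (6.85-fold). Rmrp, a small structural RNA, had the highest counts of the called genes, with no correction for length, at 19769.5, 20332 and 16752 CPM in LPE and 22929.7, 22986 and 26469 CPM in CPE, and its difference of 0.35 became -0.07, not called, with the chromosome medians removed. The RefSeq table holds this name only as a synonym of Rpph1, on chromosome 15, so its placement is uncertain, and the fit on all 9 libraries did not call it (adjusted p = 0.19). The ribosomal protein gene Rpl6 and the growth-related gene Tpt1, also among the rises with the highest counts, lie on chromosomes 12 and 15. Rpl6 became -0.05 and was not called, as it was not without LPE replicate 3 or CPE replicate 2 or 3 (adjusted p = 0.0598 to 0.101), whereas Tpt1 was called with a difference of 0.35. Wbp5, Bex1, Actb, Rpl6, Tpt1 and Rmrp have related copies in the genome, so their levels are uncertain.

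Reads on the strand opposite to a gene were tested for the genes where they outnumbered the gene's own reads. Of 231 such genes 2 (0.866%) passed the same threshold, 1 in each direction. Opposite the ubiquitin ligase gene Lrsam1 there were 110, 175 and 107 CPM in the LPE libraries and 31.99, 31.3 and 18.05 CPM in the CPE libraries, a log2 difference of -2.27 (adjusted p = 0.00256), while its own strand averaged 2.89 and 0.593 CPM. Without LPE replicate 1, LPE replicate 2 or CPE replicate 1, 1 gene was called, and without CPE replicate 3 edgeR called 0, with 18 genes at an unadjusted p under 0.05.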

How the data were processed

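Total RNA of 9 rat pXEN libraries was sequenced, and the 3 LPE and 3 CPE libraries were compared. The deposited files hold whole-number read counts per gene, for either strand and for each strand. Per the submitters' processing notes the authors used CASAVA 1.8.2, Trimmomatic 0.33, STAR 2.5.1, DESeq2 and the build rn6; which annotation they counted on was not given in the sources used here. The column of the gene's own strand was used, without its 4 summary rows. Reads of several places were not counted, so genes with near-identical copies are undercounted.

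From these counts, TMM factors over 9 libraries and edgeR 4.0.16 (R 4.3.3) quasi-likelihood F tests on the 6 libraries were computed, with filterByExpr (minimum count 10, total 15) and Benjamini-Hochberg adjusted p-values called under 0.05. CPM are counts per 1000000 of the TMM-scaled total. DESeq2 1.42.0 and limma 3.58.1 were alternatives. For genes at 0 in a medium, lower bounds set 3 counts per library. On simulated data for CPE against LPE with 8797 genes, 28% of 2-fold and 78% of 4-fold changes among 100 genes each were found, with 4 false calls in 110.

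Chromosomes and promoters came from RefSeq GRCr8 tables, where 14810 of 17315 symbols matched and 2114 more matched only a synonym. Chromosome medians were of log2(CPM + 2). Named genes were a fixed panel of 30, up to 12 largest rises and 12 falls of at least 5 CPM, 6 of highest level and 6 of lowest p per direction, and 3 per list and direction; other names were chosen after values were seen. Members and lists were chosen with earlier results of these data known. Some genes that this rule names are not reported here.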

Additional observations from a re-analysis of the deposited data

Results flagged for a closer look

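Reads on the strand opposite to a gene lie outside the main measurement. Opposite LOC257642 they were higher in CPE, the medium with Chir99021, with 212, 148 and 156 CPM in the CPE libraries (mean 171.7 CPM) and 73.8, 65.8 and 71.5 CPM in the LPE libraries (mean 70.3 CPM). The 3 CPE libraries lay above all LPE libraries, 2.44-fold higher (log2 difference 1.29, SE 0.24, edgeR adjusted p = 0.0168). The gene's own strand averaged 0.215 CPM in LPE and 0.71 CPM in CPE. What is transcribed there is not named in the tables.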

How the results depend on the processing

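The 1084 genes called (589 higher, 495 lower) became 1879 with DESeq2 (991 higher, 888 lower) and 1609 in an edgeR fit on all 9 libraries (854 higher, 755 lower). Without 1 library at a time, 694 to 1043 genes were called, 359 to 597 higher and 331 to 446 lower, fewest in all without CPE replicate 3 (694) or 2 (702). Removing chromosome medians left 363 higher and 377 lower, and moved Calr to 0.0552, Rmrp to -0.0684 and Rpl6 to -0.0487 (log2), each across 0; the cause was not tested. The other settings gave 1000 to 1368 calls, and 49.1% to 58.6% of calls were higher over all 18 alternatives. Replicate numbers did not pair the libraries (same-number correlations of deviations -0.016, -0.022 and 0.003), and an edgeR fit with the replicate number as a block called 1000 genes, 951 of them shared. Of opposite-strand genes, 2 were called, 3 without the count filter and 0 to 2 without 1 library; edgeR called 0 with the replicate block (14 genes at an unadjusted p under 0.05) and 0 without CPE replicate 3 (18 genes at that p). Of 214 named genes called, 128 were called in every alternative. By counting error alone, a count of 0 allowed up to 0.681 to 0.967 CPM in a library. Replicates varied beyond counting error, so this limit may be too low. In the simulated data 28% of 2-fold changes were found. Far fewer genes changed there than were called here, which makes the adjusted threshold stricter, so the share found in these data may differ.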
